A study of Rattus norvegicus with 4 samples.

Results

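The genes described here are 8 imprinted growth genes, *Dlk1*, *Meg3*, *Plagl1*, *Peg3*, *Ndn*, *Nnat*, *Grb10* and *Impact*, taken by name out of the 30058 genes of a single-cell RNA sequencing table of the rat anterior pituitary. Of the 8 members, 6 were listed under their own symbol, *Peg3* under a number built from its gene ID and *Meg3* under an older symbol (RGD1566401) that RefSeq gives as a synonym of it. Cells came from postpubertal Sprague Dawley rats, 4 pituitaries pooled per sex, from females in diestrus at postnatal day 44 and from males at postnatal day 59. No animal was treated or genetically altered. Each pool was loaded on 2 lanes, named here A and B for females and C and D for males, so lanes are technical replicates and sex cannot be told apart from pool and age.

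An imprinted gene is transcribed mainly from the copy inherited from 1 parent. Paternally expressed members of this group include *Dlk1*, *Plagl1*, *Peg3*, *Ndn* and *Nnat*, while *Meg3* and, in most tissues, *Grb10* are maternally expressed. Many genes of this class act on growth before and after birth, and in the pituitary *DLK1* is known as a protein of growth hormone cells. The counts carry no information on the parental copy, so imprinting itself was not measured.

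Levels are unique molecular identifier (UMI) counts scaled to 1000000 UMIs of the same cells (CPM), and they are compared only within a gene. The study's marker genes, none of them a member, set 9 cell types among 6848 cells kept of 7861. They were corticotrophs (C, 792 cells), gonadotrophs (G, 237), thyrotrophs (T, 88), somatotrophs (S, 1889), lactotrophs (L, 486), folliculostellate cells (FSC, 2312), leukocytes (Le, 550), endothelial cells (EC, 133) and erythrocytes (E, 361). The first 5 make hormones and, with the folliculostellate cells, are called pituitary types. Lanes held 18955509 to 24048021 UMIs with medians of 7971 to 9413 per cell, 30 barcodes occurred in 2 lanes, and *Xist* at 145 and 132 CPM in lanes A and B against 0.307 and 0.456 in lanes C and D matched the sexes assigned. Median UMIs per cell ran from 6482.5 in leukocytes to 13659 in somatotrophs.

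Promoters of 7 members were in a RefSeq table of the later rat build GRCr8, which gives 250 bases before and 50 after a gene's start. The 4 shown are those of *Dlk1* (chr6:134192347-134192646, plus strand), *Meg3* (chr6:134273806-134274105, plus strand), *Grb10* (chr14:90816338-90816637, minus strand) and *Peg3* (chr1:76130744-76131043, plus strand). The first 3 had their highest level among pituitary types in somatotrophs, and *Peg3* did not. Capitals mark CG pairs, at which DNA can be methylated. No methylation was measured, so the marks do not show where imprints are set.
Dlk1: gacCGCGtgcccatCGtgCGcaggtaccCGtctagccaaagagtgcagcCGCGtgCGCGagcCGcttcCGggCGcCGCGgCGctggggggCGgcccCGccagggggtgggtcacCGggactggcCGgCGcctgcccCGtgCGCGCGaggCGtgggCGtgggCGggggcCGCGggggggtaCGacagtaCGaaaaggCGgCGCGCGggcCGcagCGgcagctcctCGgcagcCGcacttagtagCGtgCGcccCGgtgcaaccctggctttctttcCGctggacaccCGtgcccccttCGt
Meg3: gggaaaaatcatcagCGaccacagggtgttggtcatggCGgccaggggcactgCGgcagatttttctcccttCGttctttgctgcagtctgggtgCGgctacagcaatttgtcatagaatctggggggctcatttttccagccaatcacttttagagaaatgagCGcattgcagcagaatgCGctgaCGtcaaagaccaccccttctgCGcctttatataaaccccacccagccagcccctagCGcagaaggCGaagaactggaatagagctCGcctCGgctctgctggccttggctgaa
Grb10: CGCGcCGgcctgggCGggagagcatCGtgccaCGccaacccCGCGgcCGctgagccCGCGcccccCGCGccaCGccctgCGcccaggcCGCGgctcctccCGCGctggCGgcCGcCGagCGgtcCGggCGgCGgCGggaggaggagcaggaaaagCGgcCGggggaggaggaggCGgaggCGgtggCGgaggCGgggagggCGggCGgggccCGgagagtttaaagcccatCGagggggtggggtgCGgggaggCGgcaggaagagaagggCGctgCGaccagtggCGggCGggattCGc
Peg3: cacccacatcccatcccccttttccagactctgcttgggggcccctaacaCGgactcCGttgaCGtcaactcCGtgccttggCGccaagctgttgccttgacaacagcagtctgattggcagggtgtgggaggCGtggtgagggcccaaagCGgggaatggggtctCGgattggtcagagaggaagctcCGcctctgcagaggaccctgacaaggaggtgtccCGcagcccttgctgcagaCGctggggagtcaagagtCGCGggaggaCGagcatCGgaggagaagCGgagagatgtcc
The *Dlk1* window held 45 CG pairs and the *Grb10* window 44, more than 98.3% and 98.1% of the 33469 promoters in the table, whose median was 7. *Meg3*, whose window starts 81.5 kb from that of *Dlk1*, held 13 and *Peg3* 16. The letters GGGGCCCC, a form of the site bound by the Plagl1 protein, occurred once in the *Peg3* window, in none of the other 6 and in 0.858% of all windows. The letters TATNCAT, a core of sites of the pituitary factor Pit-1 searched on both strands, occurred in none of the 7 and in 9.88% of all. These matches describe the windows only.

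*Dlk1* encodes a membrane protein related to the ligands of Notch receptors, and *Meg3* a long non-coding RNA of the same chromosomal cluster. *Dlk1* stood at 6154 and 5905 CPM in the somatotrophs of lanes A and B and at 8099 and 7777 in lanes C and D. Thyrotrophs followed at 954, 3399, 2712 and 2011 CPM in lanes A to D, then lactotrophs at 399, 399, 499 and 284, and corticotrophs at 278, 231, 152 and 112. In thyrotrophs 1 cell held 34.5% of the *Dlk1* UMIs of lane A and 1 cell 40.8% of those of lane B. The median thyrotroph had 406 CPM in lane A and 2297 in lane B. Somatotroph lanes did not overlap those of any other type. Against the mean of the other pituitary types *Dlk1* was higher in somatotrophs by 5.57 ± 0.33 on the log2 scale (SE, edgeR adjusted p = 2.21e-08) and in thyrotrophs by 3.11 ± 0.34 (adjusted p = 3.79e-05). It was lower in gonadotrophs (log2 -3.75 ± 0.56, adjusted p = 0.000235) and in folliculostellate cells (log2 -4.66 ± 0.56 against the 5 hormone types, adjusted p = 4.58e-06). In corticotrophs the fit gave -0.98 ± 0.44 (adjusted p = 0.13), and without lane A -1.19 passed the test. In lactotrophs it gave 0.70 ± 0.39 (adjusted p = 0.247), and without lane D 1.07 passed.

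*Meg3* had the same type at the top. It stood at 9045, 9437, 7848 and 8357 CPM in the somatotrophs of lanes A to D and was higher there by 2.51 ± 0.21 (adjusted p = 7.21e-07). Unlike *Dlk1* it was high in the other hormone types too, from a mean of 2064 CPM in gonadotrophs to 3960 in thyrotrophs, and its 4 folliculostellate lanes lay between 395 and 495. The folliculostellate level was below the mean of the hormone types by a log2 of -3.29 ± 0.32 (adjusted p = 3.78e-07). The lactotroph value of 0.78 ± 0.24 (adjusted p = 0.0325) no longer passed without lane A (0.74) or with library size in place of TMM factors, which scale for the make-up of the RNA (0.36). Leukocytes (mean 23.3 CPM) and endothelial cells (35.4) lay far below.

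**Figure D1:**
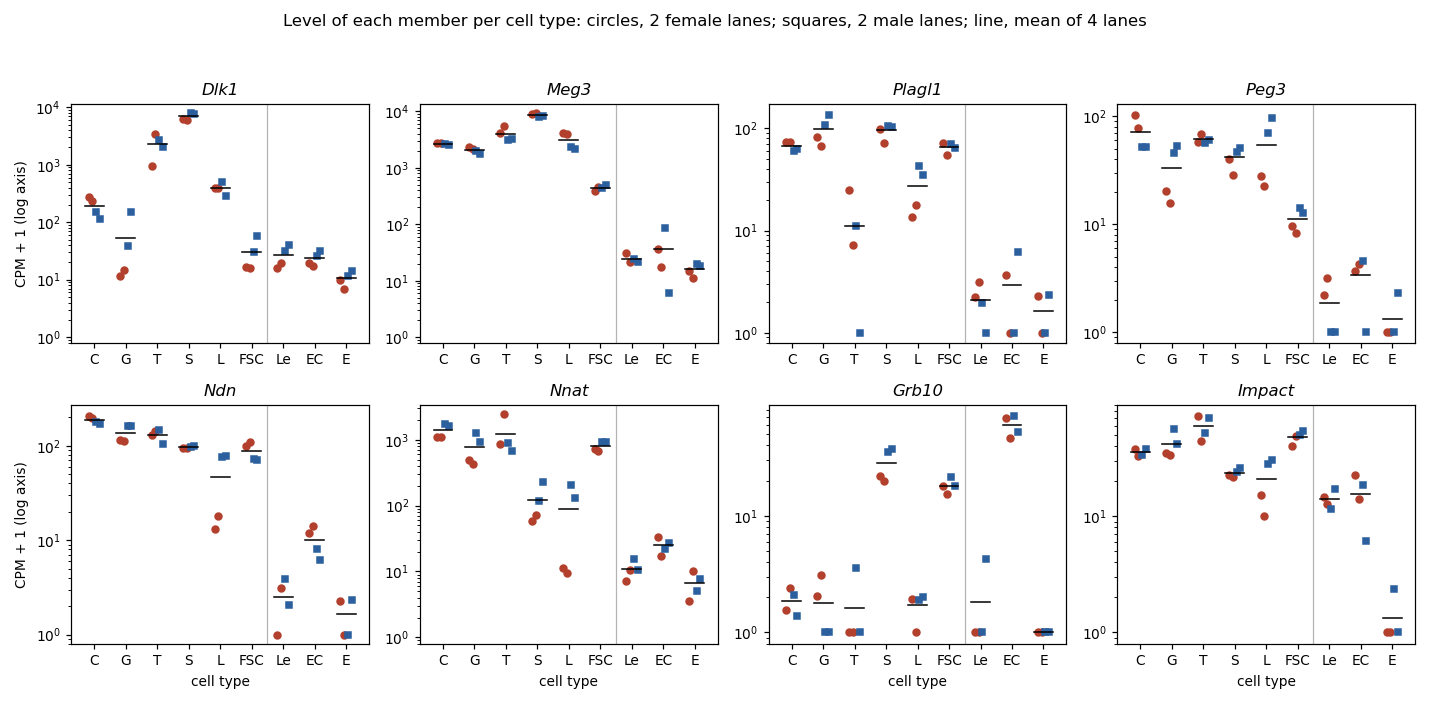
Level of the 8 members in the 9 cell types, as CPM + 1 on a log axis, with 2 female lanes (circles), 2 male lanes (squares) and the mean of 4 lanes (line). By mean CPM somatotrophs (S) are highest for *Dlk1* and *Meg3*, and endothelial cells (EC) for *Grb10*, where EC did not pass the test against S. The female and male lanes of lactotrophs (L) lie apart for *Nnat*, *Ndn*, *Peg3*, *Meg3*, *Plagl1* and *Impact*.

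The spread of the UMIs of these 2 genes over single cells was described as well. A cell was counted as expressing a gene above an Otsu threshold on its normalized UMIs, which are scaled to 8853 UMIs per cell. The threshold was 6.52 for *Dlk1* and 8.04 for *Meg3*, against 0.399 to 2.78 for the other members. A cell below it can still hold UMIs of the gene. By that rule 99.7% of somatotrophs (exact 95% interval 99.3 to 99.9), 71.6% of thyrotrophs (61 to 80.7), 19.5% of lactotrophs (16.1 to 23.4) and 5.68% of corticotrophs (4.17 to 7.53) expressed *Dlk1*. The intervals cover counting error only. *Meg3* was above its threshold in 85.4% of lactotrophs up to 98.8% of somatotrophs, and in 16.6% of folliculostellate cells. At least 1 *Dlk1* UMI was found in 65.6% of lactotrophs, 39.9% of corticotrophs and 14.2% of leukocytes. For *Meg3* that share was 74% of folliculostellate cells and 14% of leukocytes. The 49 lactotrophs richest in *Dlk1* UMIs held 52.2% of those of their type, and the 79 richest corticotrophs 78.8%, against 28.7% in the 189 richest somatotrophs. Equal numbers of cells held 32.8% of the *Meg3* UMIs in lactotrophs and 20.3% in corticotrophs. *Dlk1* had fewer UMIs than *Meg3* there, 2513 against 21850 in lactotrophs and 1695 against 24455 in corticotrophs. Counts were not matched, so the shares of the 2 genes cannot tell spread apart from level. The 49 lactotrophs highest in *Dlk1* CPM had a median *Gh1* (growth hormone) level of 3515 CPM and the rest of 3295. The 189 highest somatotrophs had 279092. Median UMIs per cell were 9350 in these 49 lactotrophs and 10402 in the rest. *Gh1* is a marker gene of somatotrophs, and cells that met the marker rules of both types were set aside as ambiguous. Lactotrophs with *Gh1* at a somatotroph level were thus left out beforehand, and the comparison cannot show them.

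Free RNA from burst cells can reach droplets of other cells, and its part in these counts was not tested. *Gh1*, made by somatotrophs, was found in all types. It was at 1293 CPM in erythrocytes and 2539 to 4430 CPM in the 7 types other than these and somatotrophs. For every 1000 *Gh1* UMIs there were 9.34 *Dlk1* UMIs in folliculostellate cells, 9.42 in leukocytes, 8.53 in endothelial cells and 7.36 in erythrocytes. These 4 ratios lay close together and below the 23.9 of somatotrophs, while corticotrophs had 65, lactotrophs 118 and thyrotrophs 539. In gonadotrophs the ratio was 13.5, and 1 cell of lane D held 55 of the 108 *Dlk1* UMIs. Without that cell, a choice made after seeing the data, the ratio was 6.67 and the mean level of gonadotrophs 23 CPM in place of 52.3. After each cell was thinned to 2000 UMIs, with no cell left out, 4.22% of gonadotrophs, 4.02% of folliculostellate cells, 3.64% of leukocytes and 3.01% of endothelial cells had a *Dlk1* UMI, against 99.6% of somatotrophs. At this depth *Dlk1* in gonadotrophs and folliculostellate cells was close to its share in leukocytes and endothelial cells. Without thinning these shares were 16%, 15.7%, 14.2%, 17.3% and 99.9%. *Meg3* in folliculostellate cells, at 135 UMIs per 1000 *Gh1* UMIs, was well above the 8.27 to 14.7 of the 3 non-pituitary types.

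**Figure D2:**
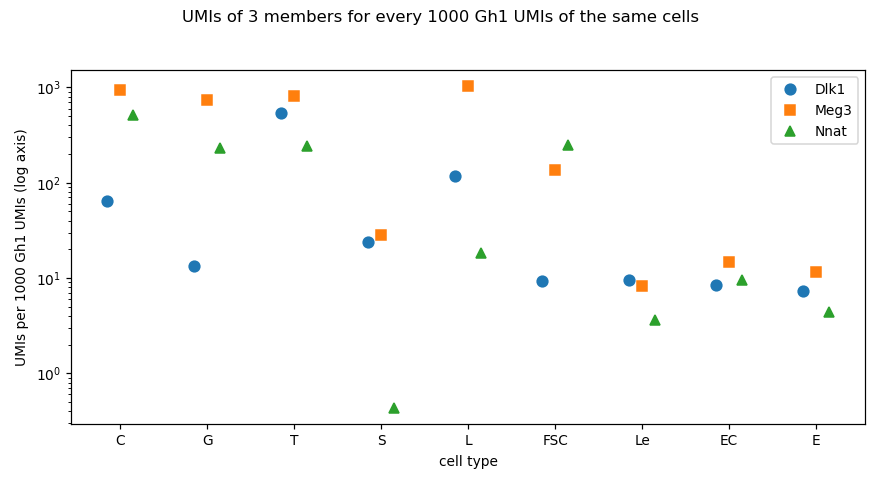
UMIs of *Dlk1*, *Meg3* and *Nnat* for every 1000 *Gh1* UMIs of the same cells, on a log axis, by cell type. *Dlk1* lies between 7.36 and 9.42 in FSC, Le, EC and E, and the other 2 genes are at 135 and 249 in FSC.

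*Plagl1* and *Peg3* encode zinc finger transcription factors, and Plagl1 is known to regulate other imprinted genes. *Plagl1* was found in gonadotrophs at 81.8, 66.6, 107 and 135 CPM in lanes A to D and in somatotrophs at 97.8, 71.3, 105 and 103, and these lanes overlapped. It was higher than the mean of the other types in somatotrophs by 1.69 ± 0.18 (adjusted p = 9.18e-06) and in gonadotrophs by 1.16 ± 0.21 (adjusted p = 0.00107). Thyrotrophs held 24.1, 6.17, 10.1 and 0 CPM, a lower level by a log2 of -3.11 ± 0.40 (adjusted p = 0.000169). This fitted value rests on 8 UMIs in 6 of the 88 thyrotrophs. Calls in corticotrophs (0.64 ± 0.20, adjusted p = 0.0303) and lactotrophs (-0.72 ± 0.23, adjusted p = 0.0447) passed by less. Both were lost with DESeq2 in place of edgeR. The former was also lost without lane B (0.52) or lane D (0.53) and the latter without lane A (-0.47) or lane C (-0.78). *Plagl1* was above threshold in 48.3% of somatotrophs, 28.6% of folliculostellate cells and 4.55% of thyrotrophs.

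*Peg3* was spread more evenly over the hormone types. Corticotrophs had 102, 76.3, 50.4 and 50.5 CPM in lanes A to D, thyrotrophs 55.6 to 67.9 and somatotrophs 27.5 to 49.4. The corticotroph value was 1.13 ± 0.28 above the mean of the other pituitary types (adjusted p = 0.008), a mean that includes the low folliculostellate cells. Against thyrotrophs alone corticotrophs did not pass (0.42 ± 0.45, adjusted p = 0.63). Lactotrophs had 26.7, 21.5, 68.1 and 94 CPM, so in the male lanes corticotrophs lay below both lactotrophs and thyrotrophs. Folliculostellate cells had 7.2 to 13.1 CPM and were lower by a log2 of -2.52 ± 0.35 (adjusted p = 2.00e-05), without overlap of the lanes. In the other 4 types *Peg3* did not pass the test.

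*Ndn* encodes necdin, a protein of the MAGE family best known from neurons that have left the cell cycle. It was highest in corticotrophs, at 207, 195, 179 and 171 CPM in lanes A to D, with gonadotrophs (111 to 161) and thyrotrophs (103 to 146) next. Corticotrophs exceeded the mean of the other pituitary types by 1.01 ± 0.25 (adjusted p = 0.00765) and lactotrophs were lower (log2 -1.34 ± 0.31, adjusted p = 0.00741). The somatotroph lanes agreed closely, at 94.2 to 98 CPM. The shares of cells above threshold ran from 74% in corticotrophs to 22.4% in lactotrophs.

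*Nnat* encodes neuronatin, a small membrane protein of the endoplasmic reticulum. Corticotrophs held 1085, 1119, 1750 and 1636 CPM in lanes A to D, folliculostellate cells 732, 674, 936 and 913, and somatotrophs 57.7, 70.9, 118 and 229. The somatotroph lanes lay below all lanes of the other 2 types. Lactotrophs held 10.3 and 8.6 CPM in the female lanes and 205 and 128 in the male lanes, the latter 2 within the range of the somatotroph lanes. The test gave 1.92 ± 0.38 in corticotrophs (adjusted p = 0.00172), 1.75 ± 0.41 in thyrotrophs (adjusted p = 0.0173), -2.02 ± 0.51 in somatotrophs (adjusted p = 0.00961) and -3.10 ± 0.56 in lactotrophs (adjusted p = 0.00131). The thyrotroph call rested on lane B, at 2443 CPM against 668 to 899 in the other lanes, and without that lane the value was 0.94 and did not pass. In every thyrotroph lane 1 cell held 36.6 to 41.6% of the *Nnat* UMIs, and the median cell had 112 to 211 CPM. The folliculostellate value of 0.78 ± 0.41 (adjusted p = 0.128) passed only when lane B was left out (1.02) among the 4 lanes. *Nnat* was above threshold in 59.7% of folliculostellate cells and 53% of corticotrophs. In both types there were cells without a UMI, 18.6% and 24.6%, beside cells with many.

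*Grb10* encodes an adaptor protein that dampens signalling from the insulin and IGF1 receptors. Its UMIs were few, 1500 in all cells, and lay in 3 types. Endothelial cells had 67.3, 45.6, 70.9 and 51.5 CPM in lanes A to D, somatotrophs 20.9, 18.7, 34 and 36.4, and folliculostellate cells 16.9, 14.2, 20.4 and 17. The lanes of these 3 types did not overlap those of any other type, where none exceeded 3.23 CPM. Somatotroph and folliculostellate lanes overlapped each other, while that pair passed the test after TMM scaling (1.22 ± 0.31, adjusted p = 0.0039). Endothelial cells did not pass the test against somatotrophs (0.47 ± 0.35, adjusted p = 0.284). Among pituitary types *Grb10* was higher in somatotrophs by 4.41 ± 0.31 (adjusted p = 1.47e-07) and in folliculostellate cells by 2.94 ± 0.35 (adjusted p = 3.40e-06), fitted values that rest on types with only a few UMIs. The shares above threshold were 39.8% in endothelial cells (31.5 to 48.7), 27.5% in somatotrophs, 11.2% in folliculostellate cells and at most 1.14% in other pituitary types. In erythrocytes 0 of 361 cells had a UMI, which at 3 counts allows a share of cells with a UMI of up to 0.831%, for counting error only.

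*Impact* encodes an inhibitor of Gcn2, the kinase that lowers protein synthesis when amino acids are short. It was the most even member, from 58.8 CPM (lanes 43.2 to 72.2) in thyrotrophs to 20 (9.08 to 29.6) in lactotrophs. Lactotrophs passed the test at -0.73 ± 0.19 (adjusted p = 0.0125), and without lane B the value was -0.59 and did not. Endothelial cells held 14.4 CPM and leukocytes 13.

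**Figure D3:**
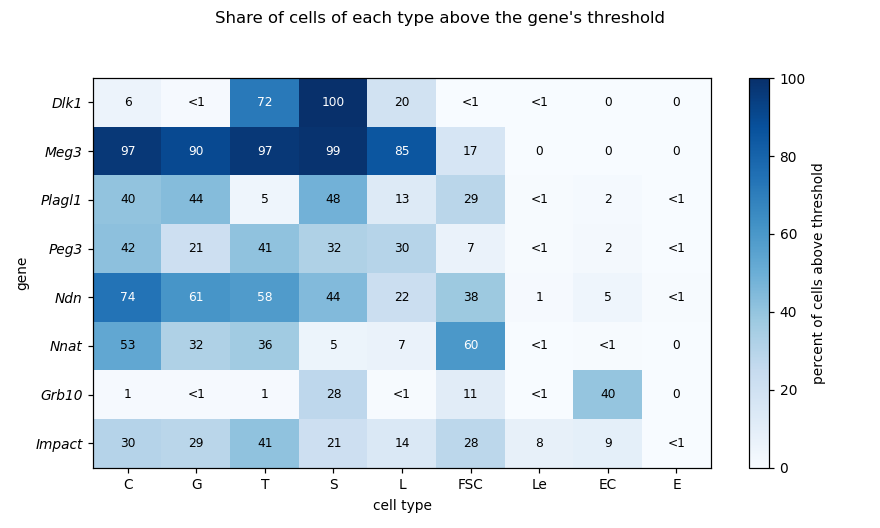
Percent of cells of each type (columns) above the threshold of each gene (rows), as color and number. *Meg3* is at 85.4% or more in every hormone type, *Dlk1* at 99.7% in S and 71.6% in T, and *Grb10* at 39.8% in EC and 27.5% in S. Thresholds run from 0.399 normalized UMIs for *Grb10* to 8.04 for *Meg3*, so shares are not comparable between rows. Depth was not matched between columns.

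Counted over members, 4 of 8 passed the test in corticotrophs, where 22.5% of all genes tested did. The counts were 2 of 8 in gonadotrophs (13.2% of all genes), 3 of 8 in thyrotrophs (7.26%), 5 of 8 in somatotrophs (21.8%), 5 of 8 in lactotrophs (17.4%) and 4 of 8 in folliculostellate cells (48.7%). Somatotrophs had 4 higher and 1 lower, and lactotrophs 1 higher and 4 lower. Against leukocytes and endothelial cells together the mean of the 6 pituitary types was higher for 7 of 8 members, beside 55% of all genes called in either direction. The differences ran from 1.27 ± 0.18 for *Impact* to 6.42 ± 0.29 for *Meg3*. *Grb10* gave -1.40 ± 0.63 (adjusted p = 0.0713), and without lane B (-1.74) or lane C (-2.45) it passed, while without lane D it turned to 1.02 (adjusted p = 0.557). Over its 11 alternatives the adjusted p ran from 0.0141 to 0.557. When each member's 8 types other than erythrocytes were put in order of mean CPM, 15 of 56 pairs of neighbours differed beyond their spread. Over all genes and all pairs of types, near or far in level, 33.2% of tests passed, which is no reference for neighbours. For *Dlk1* these were somatotrophs over thyrotrophs, thyrotrophs over lactotrophs and corticotrophs over gonadotrophs. For *Meg3* they were somatotrophs over thyrotrophs, gonadotrophs over folliculostellate cells and the latter over endothelial cells. No neighbours among the 5 hormone types and folliculostellate cells differed for *Ndn* or *Impact*. After TMM scaling some neighbours stood in the opposite order, none past the test. Among pituitary types these were gonadotrophs and somatotrophs for *Plagl1* (log2 -0.44 ± 0.24) and thyrotrophs and somatotrophs for *Ndn* (-0.05 ± 0.38). Thyrotrophs and lactotrophs did so for *Meg3* (-0.22 ± 0.32), *Peg3* (-0.10 ± 0.46) and *Grb10* (-0.08 ± 1.58).

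Males were then compared with females within each type, 2 lanes against 2. Lactotrophs, the prolactin cells, are given first. *Nnat* stood at 10.3 and 8.6 CPM in the female lanes, where leukocytes held 6.13 and 9.66, and at 205 and 128 in the male lanes, a log2 difference of 3.49 ± 0.22 (adjusted p = 1.34e-18). The share of lactotrophs above its threshold ran from 0 to 14.5% over lanes. *Ndn* rose from 12.2 and 17.2 CPM in females to 74.5 and 77.7 in males (1.72 ± 0.22, adjusted p = 9.23e-09) and *Peg3* from 26.7 and 21.5 to 68.1 and 94 (1.09 ± 0.20, adjusted p = 1.85e-05). *Meg3* ran the other way, from 4122 and 3990 CPM in females to 2377 and 2139 in males (log2 -1.49 ± 0.05, adjusted p = 7.10e-28). Female and male lanes of these 4 genes did not overlap, nor did those of *Plagl1* and *Impact*. The share of all genes without such overlap was not counted. Each of the 4 passed under all 10 alternatives that gave a value. In lactotrophs 6 of 7 members tested passed, beside 34% of all genes.

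Scaling mattered in lactotrophs. Library size in place of TMM factors moved the median gene there by 0.66 toward males, and leaving the 7 hormone genes out of the table moved it by 0.39. *Meg3* ran from -1.57 to -0.84 over its 10 alternatives, *Peg3* from 0.85 to 1.74, *Ndn* from 1.46 to 2.38 and *Nnat* from 3.09 to 4.15. *Impact* (0.64 ± 0.30, adjusted p = 0.0912) ran from 0.34 to 1.29 and passed under 3 of them. *Dlk1* lanes overlapped by CPM (399 and 399 against 499 and 284), and its call of -0.67 ± 0.11 (adjusted p = 3.42e-06) became -0.01 and -0.27 under those 2 scalings. *Plagl1* (12.7 and 16.7 CPM in females, 41.8 and 33.7 in males, 0.72 ± 0.26, adjusted p = 0.0285) did not pass without lane A (0.51) or lane C (0.55).

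**Figure D4:**
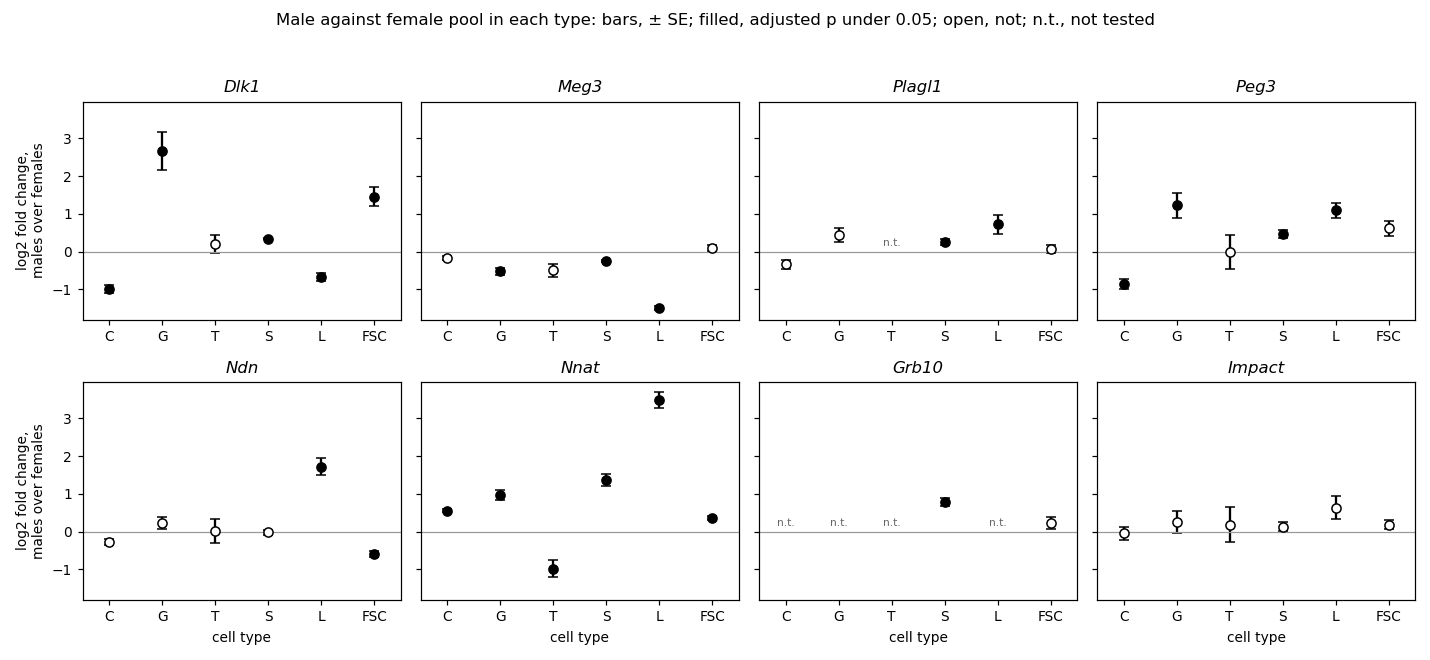
Log2 fold change of males over females for each member in the 6 pituitary types, with bars for ± SE (smaller than the point where not seen), filled points for an adjusted p under 0.05, open points for others and n.t. for genes not tested. *Nnat* reaches 3.49 and *Meg3* -1.49 in L, and *Peg3* is at 1.09 in L and -0.87 in C.

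In somatotrophs the differences were smaller. *Grb10* stood at 20.9 and 18.7 CPM in females and 34 and 36.4 in males (0.78 ± 0.11, adjusted p = 3.18e-06), *Dlk1* was higher in males by 0.34 ± 0.02 (adjusted p = 4.39e-14) and *Nnat* by 1.38 ± 0.16 (adjusted p = 7.11e-08). *Meg3* was lower in males by a log2 of -0.25 ± 0.03 (adjusted p = 3.60e-09). The 189 somatotrophs richest in *Nnat*, of 1889, held 89.2% of its UMIs. *Plagl1* (0.25 ± 0.08) and *Peg3* (0.47 ± 0.11) passed, but without lane B they stood at 0.05 and 0.25 and did not. In all, 6 of 8 members passed in somatotrophs, beside 26.4% of all genes.

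Gonadotrophs passed for 4 of 7 members tested, beside 15.2% of all genes. *Nnat* was at 495 and 428 CPM in females and 1251 and 924 in males (0.97 ± 0.13, adjusted p = 0.000136), and *Peg3* at 19.1 and 14.8 against 44.1 and 51.4 (1.22 ± 0.32, adjusted p = 0.0176). *Peg3* did not pass without lane B (1.09) or lane D (1.12). *Meg3* was lower in males (log2 -0.52 ± 0.09, adjusted p = 0.00123), and without lane D the value was -0.41 and did not pass. *Dlk1* gave 2.66 ± 0.51 (adjusted p = 0.00218), but levels were 10.6 and 13.7 against 37.1 and 148 CPM, the last of which held the single cell named above and was 30.7 without it. Without lane D the value was 1.35 and did not pass. Leukocytes had 14.7 and 18.3 CPM of *Dlk1* in females and 30.8 and 39.8 in males. The same holds beside the *Dlk1* call in folliculostellate cells (15.9 and 15.1 against 29.6 and 57.7 CPM, 1.45 ± 0.25, adjusted p = 0.0012). The part of free RNA in the 2 calls was not tested. A single folliculostellate cell held 12.3% of the *Dlk1* UMIs of its type, and the call there was not tested without it.

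In corticotrophs *Peg3* was lower in males, with 102 and 76.3 CPM in females and 50.4 and 50.5 in males (log2 -0.87 ± 0.13, adjusted p = 2.14e-05). *Dlk1* was lower in males as well, 278 and 231 against 152 and 112 CPM (-1.0 ± 0.10, adjusted p = 2.35e-09), and *Nnat* higher (0.56 ± 0.05, adjusted p = 1.04e-09). These 3 of 7 members tested passed where 1.52% of all genes did. A single corticotroph held 10.4% of the *Dlk1* UMIs of its type, and the *Dlk1* call was not tested without it. The *Meg3* value of -0.17 ± 0.05 missed the limit (adjusted p = 0.0501) and passed without lane A (-0.20) or lane B (-0.14). In folliculostellate cells 3 of 8 passed, beside 11.3% of all genes. Besides *Dlk1* these were *Nnat*, at 732 and 674 against 936 and 913 CPM (0.36 ± 0.05, adjusted p = 6.90e-05), and *Ndn*, at 99.5 and 108 against 72.3 and 70.2 CPM (-0.58 ± 0.08, adjusted p = 0.000139). In thyrotrophs, with 18 to 28 cells a lane, 1 of 6 members tested passed, beside 4.48% of all genes. It was *Nnat* (-0.98 ± 0.23, adjusted p = 0.00349), which rested on lane B and stood at 0.04 without it. *Dlk1* in thyrotrophs gave 0.21 ± 0.24 (adjusted p = 0.727) with 954 CPM in lane A and 3399 in lane B, and without lane B the value was 1.48 and passed.

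With DESeq2 in place of edgeR 14 of the 23 sex calls of members passed. Those lost were *Peg3* and *Dlk1* in gonadotrophs, *Plagl1*, *Peg3* and *Nnat* in somatotrophs, *Plagl1* and *Dlk1* in lactotrophs, *Dlk1* in folliculostellate cells and *Nnat* in thyrotrophs. In a single fit over all pituitary types 18 passed, without *Nnat* in corticotrophs, folliculostellate cells and thyrotrophs, *Dlk1* in somatotrophs and *Plagl1* in lactotrophs.

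The sex difference itself differed between the 6 types for 6 of 8 members, beside 25.7% of all genes, by an F test over 24 sums per type and lane. That fit had no term for the lane that types share. The adjusted p was 1.46e-12 for *Meg3*, 1.56e-10 for *Ndn*, 6.50e-09 for *Peg3*, 2.29e-08 for *Nnat*, 7.22e-06 for *Dlk1* and 0.024 for *Plagl1*. That of *Plagl1* did not pass without lane B (adjusted p = 0.0592) or lane D (0.0736), in a range over 9 alternatives of 0.000777 to 0.0736. *Grb10* (adjusted p = 0.149) and *Impact* (0.596) did not pass.

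Proliferating cells, those with at least 14 of the study's 39 cell cycle genes above threshold, numbered 100, of which 32 were folliculostellate cells, 27 somatotrophs and 26 lactotrophs. *Meg3* was lower in them in all 3 types. In somatotrophs it stood at 4092, 5074, 3487 and 6093 CPM in proliferating cells of lanes A to D and at 9157, 9531, 7897 and 8392 in the others, a log2 of -1.34 ± 0.14 (adjusted p = 2.74e-20). The values were -1.55 ± 0.20 in folliculostellate cells (adjusted p = 1.15e-12) and -1.11 ± 0.19 in lactotrophs (adjusted p = 1.02e-07), the latter from lanes A and B alone since lanes C and D had 1 such cell each. *Meg3* was lower in 4 of 4 lanes in each type and passed under every alternative that gave a value. Proliferating cells had more UMIs, with medians of 15171 against 13643 in somatotrophs, 13631 against 6869 in folliculostellate cells and 17082 against 9992 in lactotrophs. The part of this depth in the result was not tested.

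*Plagl1* and *Nnat* were higher in proliferating somatotrophs in 4 of 4 lanes. *Plagl1* stood at 185, 131, 200 and 276 CPM against 95.9, 70, 104 and 101 (0.69 ± 0.21, adjusted p = 0.00831), and without lane D the value was 0.47 and did not pass. *Nnat* stood at 396, 166, 224 and 300 against 50.1, 68.9, 116 and 228 (1.0 ± 0.20, adjusted p = 7.29e-06), and without lane A the value was 0.44 and did not pass. *Dlk1* was lower in somatotrophs (-0.62 ± 0.13, adjusted p = 6.59e-05) and lactotrophs (-0.72 ± 0.21, adjusted p = 0.00688), calls that were lost with library size as scaling (-0.21 and -0.45), in lactotrophs also with DESeq2 and in somatotrophs without lane A (-0.56). In lactotrophs the lanes did not go one way, with 506 CPM in proliferating cells against 383 in the others in lane A and 126 against 429 in lane B. *Impact* passed in folliculostellate cells (-1.11 ± 0.42, adjusted p = 0.042) on 12 UMIs, and did not without lane B (-1.08), lane C (-1.10) or lane D (-0.74), and in all it passed under 1 of 7 alternatives. Library size moved the median gene toward proliferating cells by 0.22 to 0.41. In all, 4 of 8 members passed in somatotrophs (18.4% of all genes), 2 of 8 in folliculostellate cells (19.1%) and 2 of 7 tested in lactotrophs (19.1%). Of these 8 calls 2 were higher, and with library size 2 of 5.

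**Figure D5:**
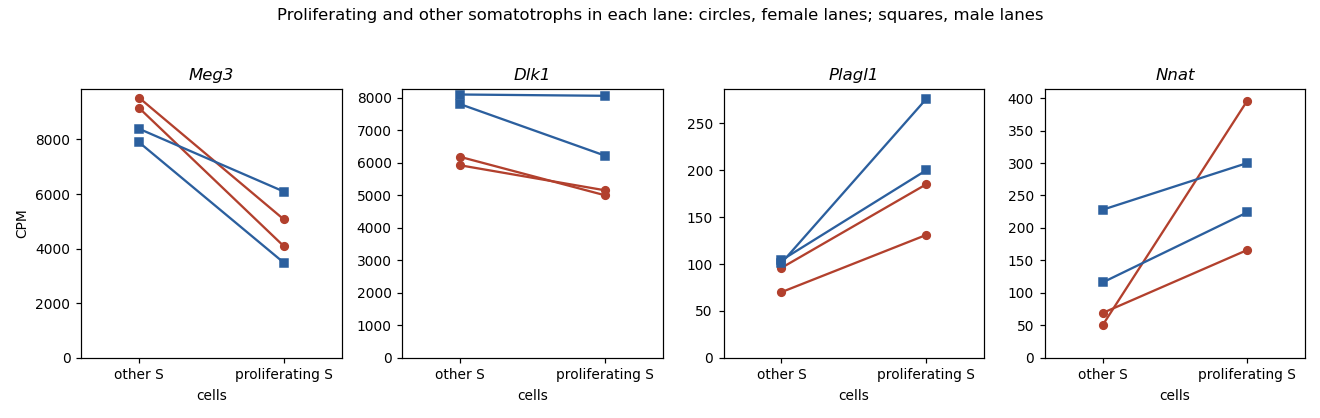
CPM of 4 members in proliferating and other somatotrophs of each lane, with lines joining the 2 values of a lane (circles, female lanes, and squares, male lanes). *Meg3* falls in every lane, from 7897 or more to 6093 or less, and *Plagl1* and *Nnat* are higher in every lane.

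Of 57 other genes listed as imprinted in mouse or human, 49 were found and 32 passed the filter on low counts. Folliculostellate cells had 24 of these past the test (75% beside 48.7% of all genes, 13 higher, 11 lower, median log2 0.26 beside 0.09 of all genes), somatotrophs 16 (50% beside 21.8%, 10 higher, 6 lower, median 0.01 beside 0.05), corticotrophs 12 (37.5% beside 22.5%, 3 higher, 9 lower, median -0.27 beside 0.00) and gonadotrophs 12 (37.5% beside 13.2%, 7 higher, 5 lower, median 0.23 beside -0.01). Thyrotrophs had 8 (25% beside 7.26%, 7 higher, 1 lower, median 0.18 beside -0.09) and lactotrophs 6 (18.8% beside 17.4%, 5 higher, 1 lower, median 0.08 beside 0.01), the latter share near that of all genes. *Cdkn1c*, an inhibitor of the cell cycle, was at a mean of 202 CPM in gonadotrophs (lanes 116 to 259) and 142 in folliculostellate cells, against 7.19 in corticotrophs. *Mest* stood at 201 CPM in lactotrophs, where its log2 was 2.26 ± 0.25, and at 307 in folliculostellate cells, against 20.3 to 52.7 elsewhere. *Gnas*, whose main product is the stimulatory G protein alpha subunit, was at 8484 to 10078 CPM in the 4 lactotroph lanes (1.38 ± 0.15) and at 3222 to 5851 in the other types. *Dcn*, which also served to set pericytes aside, was at 77.7 CPM in thyrotrophs, 43.8 in somatotrophs and 43.6 in lactotrophs, and at 2.01 or less in the other 3. *Nap1l5* was at 3.95 CPM in folliculostellate cells and 69 to 303 in hormone types.

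Of 29 genes whose products act with or like the members, 26 were found and 23 tested. Folliculostellate cells had 16 past the test, 11 higher and 5 lower (69.6% beside 48.7% of all genes, median 0.61 beside 0.09), among them the receptor *Notch1* at 45.3 CPM against 0.827 or less in hormone types (6.11 ± 0.30, adjusted p = 1.90e-10). *Adcyap1r1*, the PACAP receptor that Plagl1 is known to induce, was at 65.1 CPM there and at 44.1 in gonadotrophs, whose lanes were spread from 4.23 to 87.9, against 1.56 or less in the other 4. *Eif2ak4*, which encodes Gcn2, the kinase whose activity Impact lowers, was higher in somatotrophs by 1.96 ± 0.24 (34 CPM against 7.85 to 22.1). *Grb7*, a relative of *Grb10*, was higher in somatotrophs (12.5 CPM, 2.38 ± 0.27) and in lactotrophs (16.9 CPM, 2.80 ± 0.29). *Grb14*, another, was higher in gonadotrophs (40 CPM, lanes 22.2 to 70.7, 1.95 ± 0.31) and in corticotrophs (24.6 CPM, 1.30 ± 0.28), and stood at 27.8 CPM in folliculostellate cells. Corticotrophs had 6 of 23 (26.1% beside 22.5%, 2 higher, 4 lower, median 0.00), gonadotrophs 5 (21.7% beside 13.2%, 4 higher, 1 lower, 0.14), somatotrophs 5 (21.7% beside 21.8%, 3 higher, 2 lower, 0.13) and lactotrophs 3 (13% beside 17.4%, 1 higher, 2 lower, -0.07). In corticotrophs, somatotrophs and lactotrophs these shares were near or under those of all genes. Thyrotrophs had 0 with edgeR (beside 7.26% of all genes, median -0.26 beside -0.09). An unadjusted p under 0.05 was found there for 4 of the 23, beside 2839 of all 13624 genes, and 0 passed with DESeq2. *Blcap* and *Magel2* are in both lists.

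Over the 16 sums of 8 types and 2 sexes the genes most like each member, by Pearson's r of log2(CPM + 1) among 13616 genes, were *Cdkn2a* for *Dlk1* (r = 0.923, after RGD1305733-2 at 0.932), *Bex2* for *Meg3* (0.969, after RGD1312005 at 0.970), *Scfd2* for *Plagl1* (0.931) and *Sgsm1* for *Peg3* (0.980). They were *Psmg1* for *Ndn* (0.971), *Phkb* for *Nnat* (0.962), *Hspa2* for *Grb10* (0.884) and LOC102553119 for *Impact* (0.946). Among members, *Nnat* and *Impact* (0.95) and *Meg3* and *Peg3* (0.92) were the most alike. The sums share lanes and pools, and these values describe them only.

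Cells outside the 9 types were set aside by marker genes of their own. The 60 melanotrophs, of which 56 were from males, held *Meg3* at 1247 CPM (exact Poisson interval 1167 to 1331), *Peg3* at 146 (120 to 177) and *Ndn* at 84.1 (64.4 to 108), and 4 female cells held 90 of their 117 *Dlk1* UMIs. The *Meg3* value joins unlike cells, at 3931 CPM (3467 to 4438) in the 4 female and 977 (903 to 1056) in the 56 male melanotrophs. In the male melanotrophs *Peg3* was at 159 CPM (130 to 193), above every lane of the 9 types, and the 4 female ones held 1 UMI. The 51 pericytes had *Nnat* at 250 CPM (201 to 306) and *Grb10* at 49.4 (29.3 to 78). The 59 posterior pituitary cells, 55 of them from males, had *Meg3* at 493 CPM (441 to 550), *Nnat* at 280 (241 to 323) and *Ndn* at 102 (79.4 to 130). These intervals cover counting error only.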

How the data were processed

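UMI counts per gene were deposited as whole numbers for 7861 cells. The authors used 10x 3′ v2 chemistry and, per the labels, Cell Ranger 2.1, with a rat NCBI annotation whose 3′ ends were extended, then merged the lanes at matched depth, so counts of a gene depend on that extension and depth was evened out before deposit. Lanes were assigned to sexes by the cell numbers that the study gives. Cells were classified by its rules, which removed 1013 cells (560 outliers, 195 doublets, 207 ambiguous and others).

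Sums of counts were tested with edgeR 4.0.16 (quasi-likelihood, TMM, filterByExpr with a minimum count of 10, sex or lane as a term where both were present), 2-sided, with Benjamini-Hochberg adjustment over all genes and a limit of 0.05. Type sums were per type and sex, and sex tests per lane. The tests were also run on simulated counts in which some genes were changed by known folds. No random variation between pools or animals was added, so that run cannot show how the tests hold between animals. Alternatives included DESeq2 1.42.0. All members were named. Of the list genes, those among the 4 largest changes past the test in a type could be named. Since lanes are technical, p-values measure the spread between lanes or pools only. Members and lists were chosen with earlier results of these data known. Precision rests on 18955509 to 24048021 UMIs per lane.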

Additional observations from a re-analysis of the deposited data

Results flagged for a closer look

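The sex difference of 6 members differed between the pituitary types by the F test over 24 sums. For *Meg3* (adjusted p = 1.46e-12) males were lower in lactotrophs by a log2 of -1.49 and close to females in folliculostellate cells (0.09). For *Ndn* (adjusted p = 1.56e-10) males were higher in lactotrophs (1.72) and lower in folliculostellate cells (-0.58). For *Peg3* (adjusted p = 6.50e-09) males were higher in gonadotrophs (1.22) and lactotrophs (1.09) and lower in corticotrophs (-0.87). For *Nnat* (adjusted p = 2.29e-08) the values ran from 3.49 in lactotrophs to -0.98 in thyrotrophs, the latter resting on lane B, without which it was 0.04. For *Dlk1* (adjusted p = 7.22e-06) they ran from 2.66 in gonadotrophs, a value that rested on lane D, to -1.0 in corticotrophs. For *Plagl1* (adjusted p = 0.024) they ran from 0.72 in lactotrophs to -0.34 in corticotrophs. Each sex is 1 pool, and the pools also differ in age. Groups of 2 lanes were too small for a check of single lanes that stand apart.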

How the results depend on the processing

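No paired analysis was possible because the lanes carry no replicate numbers that would pair a female with a male lane. Types and proliferating cells, which share lanes, were fitted with sex or lane as a term throughout. Under an adjusted p limit of 0.001 the calls of members fell from 23 to 11 between types, from 23 to 15 between sexes, from 8 to 5 in proliferating cells and from 15 to 3 for neighbouring pairs, those of other imprinted genes from 78 to 36 and those of partner genes from 35 to 17. With DESeq2 there were 14 calls between sexes. With no filter 25 neighbouring pairs passed, with lanes as libraries 57 calls of partner genes, and with library size 5 calls in proliferating cells, where leaving out 1 lane at a time gave 5 to 7 calls. The cause was not tested. All other counts stayed within 1.5 times the reported ones, with 22 to 34 calls between types and 18 to 26 between sexes under the remaining settings. Of single results, *Nnat* in thyrotrophs of the 2 sexes turned from -0.98 to 0.04 without lane B, in a range of -1.53 to 0.04 over lanes left out. Counted once for each member, type and alternative, sex differences lost a call 36 times, gained one 15 times and kept their side of the limit 421 times, and differences between types 25, 36 and 611 times. Library size moved the median gene by -0.37 in somatotrophs, -0.33 in lactotrophs and 0.31 in folliculostellate cells. With hormone and globin genes left out of the totals, 7 of 8 members kept their highest type. Only 88 thyrotrophs, 100 proliferating cells and 1500 *Grb10* UMIs limited the depth.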
